A study of Mus musculus with 18 samples.

Results

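The 10 genes described here are the PIM kinases Pim1, Pim2 and Pim3, the suppressors of cytokine signalling Socs1, Socs3 and Cish, the kinase Jak1, and the transcription factors Stat3, Stat5a and Stat6. They were chosen by gene symbol. A probe set is a group of short probes read together as 1 signal. Every probe set was taken whose platform annotation gives a single symbol, that symbol being 1 of the 10. This gave 22 probe sets among the 34945 with a single symbol, and 10 genes among 18193. Of the 22, 21 passed the filter on low signals, and each of the 10 genes kept at least 1 probe set.

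Cytokine receptors carry JAK kinases on their inner side. When a cytokine draws receptor chains together, the JAKs phosphorylate each other and the receptor, and STAT proteins bind there, become phosphorylated, pair and move to the nucleus. SOCS genes are among the genes that STAT proteins switch on, and SOCS proteins then bind JAKs or receptors and end the signal, which makes them a feedback brake. PIM kinases are serine/threonine kinases that are active as soon as they are made, so their amount is set largely by the synthesis and decay of their RNA and protein. They were found as cooperating genes in lymphoma, they phosphorylate regulators of survival, translation and the cell cycle, and in lymphocytes their RNA rises after cytokine or antigen-receptor signals.

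The RNA of CD23+ B lymphocytes of the spleen was read on 18 arrays; the strain was C57BL/6J throughout. CD23 is a receptor for IgE found on follicular B cells. PBS with vehicle (n = 4) is the control, given neither anti-IgD nor PF-303. Anti-IgD with vehicle (n = 4) was stimulated in the animal by an anti-IgD antibody that clusters the antigen receptor of mature B cells. The other groups, PBS (n = 5) and anti-IgD (n = 5) under PF-303, were treated in advance with that compound, which blocks the kinase BTK, a link from the antigen receptor to calcium and NF-kB signalling. Dosing came 2 h ahead of the antibody and harvest 2 h after it, so all groups describe an early time. The question is how far the RNA of this signalling module follows B-cell receptor stimulation in the animal, and how far that depends on BTK. The labels do not say that each sample came from its own mouse, and p-values then measure the spread between samples, which may be technical.

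The sequences upstream of the start sites of Pim1, Pim3 and Socs3 are shown because these genes had the largest changes among the 10. They are the 250 bases before the RefSeq start, from the build GRCm38.p6, 5′ to 3′ on the strand of the gene. Capitals mark matches to the motifs searched on both strands: the STAT site TTCNNNGAA and its variant with 1 more N in the middle, the E-box CACGTG bound by MYC and related factors, and the NF-kB and SRF consensus sites.
Pim1, chr17:29490535-29490784, plus strand: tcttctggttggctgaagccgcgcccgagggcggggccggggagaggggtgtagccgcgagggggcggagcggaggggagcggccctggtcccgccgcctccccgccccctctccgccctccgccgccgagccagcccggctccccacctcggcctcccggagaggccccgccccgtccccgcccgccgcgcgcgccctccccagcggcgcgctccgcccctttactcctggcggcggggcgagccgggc
Pim3, chr15:88861944-88862193, plus strand: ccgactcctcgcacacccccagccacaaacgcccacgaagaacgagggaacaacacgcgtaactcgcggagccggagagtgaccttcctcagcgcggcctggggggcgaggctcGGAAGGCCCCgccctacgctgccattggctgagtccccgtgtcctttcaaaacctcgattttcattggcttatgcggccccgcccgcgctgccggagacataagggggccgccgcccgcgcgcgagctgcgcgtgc
Socs3, chr11:117969367-117969616, minus strand: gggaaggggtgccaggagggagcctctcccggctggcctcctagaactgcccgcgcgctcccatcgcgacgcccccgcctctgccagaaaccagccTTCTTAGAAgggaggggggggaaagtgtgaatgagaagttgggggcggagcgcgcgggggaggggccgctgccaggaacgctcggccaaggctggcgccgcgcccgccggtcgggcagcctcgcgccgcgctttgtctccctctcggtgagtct
For Cish, a textbook STAT5 target, the 30 bases around the paired STAT motifs are shown.
Cish, chr9:107296653-107296682, plus strand: ccagttTTCCTGGAAagTTCTTGGAAatct

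RefSeq windows of 250 bases before to 50 after the start were found for all 10 genes. Socs3 holds the STAT motif TTCTTAGAA at bases -154 to -146. Cish holds TTCCTGGAA at bases 1 to 9 and TTCTTGGAA at bases 12 to 20, both just after the start. The Pim3 window has 1 match to the NF-kB consensus at bases -136 to -127, read on the opposite strand. The Pim1 window shown has no match, and a second annotated Pim1 start has an E-box at bases -58 to -53. A second start of Stat5a has an NF-kB match at bases -234 to -225, and no motif was found in the windows of Pim2, Socs1, Jak1, Stat3 and Stat6. Such matches are common: of 32851 windows in the table, 8.3% hold TTCNNNGAA, 6.95% its longer variant, 7.15% CACGTG, 8.46% the NF-kB consensus and 1.63% the SRF consensus. A match is a sequence description and no binding was measured. The windows shown of Pim1 (81.3% G or C), Socs3 (73.3%) and Pim3 (69% G or C) are richer in G and C than the median window (52.7%). The window of the second Pim1 start holds 49%. Those of the other genes, at 53.3% (Cish) to 67.7% (second start of Stat5a), also lie above the median.

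Every array had been scaled to a common level, with a 2%-trimmed mean signal of 99.96 to 99.97, so each level is relative to the other signals of that array. Of the B-cell genes, Ms4a1 ranged from 3660 to 10600, Cd79b from 2960 to 11300 and Fcer2a (CD23) from 1540 to 2980. Pax5 was dimmer, at 69.1 to 210. The T-cell genes Cd3e (1.24 to 12.5) and Cd4 (0.905 to 3.55) did not pass the filter. Other T-cell genes did: Cd8a ranged from 20.5 to 45.6 and Cd3d from 1.25 to 35.2. Genes of the macrophage list also passed, Ctss at 2990 to 6450, Lyz2 at 533 to 2430 and Csf1r at 148 to 405. So did the neutrophil gene S100a8 (46.2 to 468) and the platelet gene Pf4 (35.3 to 228). With anti-IgD in vehicle-treated mice the summed signal of the B-cell list went from 12900 to 26100 down to 8470 to 11100, with 3 of 5 genes called lower, and that of the stromal and endothelial list from 180 to 381 down to 83.2 to 111, with its 1 tested gene called lower. Over all genes tested 30.6% were called lower in that comparison. The part of cell makeup in the results was not tested. In 6 arrays the signal of the spike-in controls, added RNAs that do not come from the cells, exceeded 2 times the median of all arrays. These were PBS with vehicle replicates 3 and 4, PBS with PF-303 replicates 3 and 4, and anti-IgD with PF-303 replicates 1 and 3, with ratios of 2.26 to 3.88. No array of anti-IgD with vehicle was among them (0.531 to 1.11), so the value without the 6 arrays is given where a call ended or a called change moved by over 1.5 times. The row of the position code in the labels, which has no stated meaning, was tried as a block in the same way. The median log2 change of all 11104 genes tested was -0.13 with anti-IgD and vehicle against PBS and vehicle, and -0.02 once the arrays were shifted to a common median.

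Pim3 showed the largest response to anti-IgD among the 10 genes and Pim1 the deepest fall under PF-303. In vehicle-treated mice anti-IgD changed 6 of the 10 genes at an adjusted p under 0.05 (limma, Benjamini-Hochberg over 11104 genes), against 47.9% of all genes tested. Pim1, Pim3, Stat3 and Stat6 rose, where 17.4% of all genes did, and Pim2 and Jak1 fell, where 30.6% did. A count of 6 in 10 is close to the background, and the size and direction of single genes carry more than the count. Samples of the 2 groups did not overlap for Pim1, Pim2 and Pim3, against 42.3% of all genes. In anti-IgD-treated mice PF-303 lowered 2 of the 10, Pim1 and Pim3, where 30.2% of all genes changed, 19.8% higher and 10.4% lower; the same 2 genes did not overlap between groups, against 26.8% of all. In PBS-treated mice PF-303 changed 0 of 10 by limma, against 0.747% of all genes (0.072% higher and 0.675% lower). Of the 10, 2 had an unadjusted p under 0.05, Pim1 and Pim3, against 1176 of 11104 genes. Pim1 alone did not overlap between groups, against 4.11% of all genes.

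**Figure D1:**
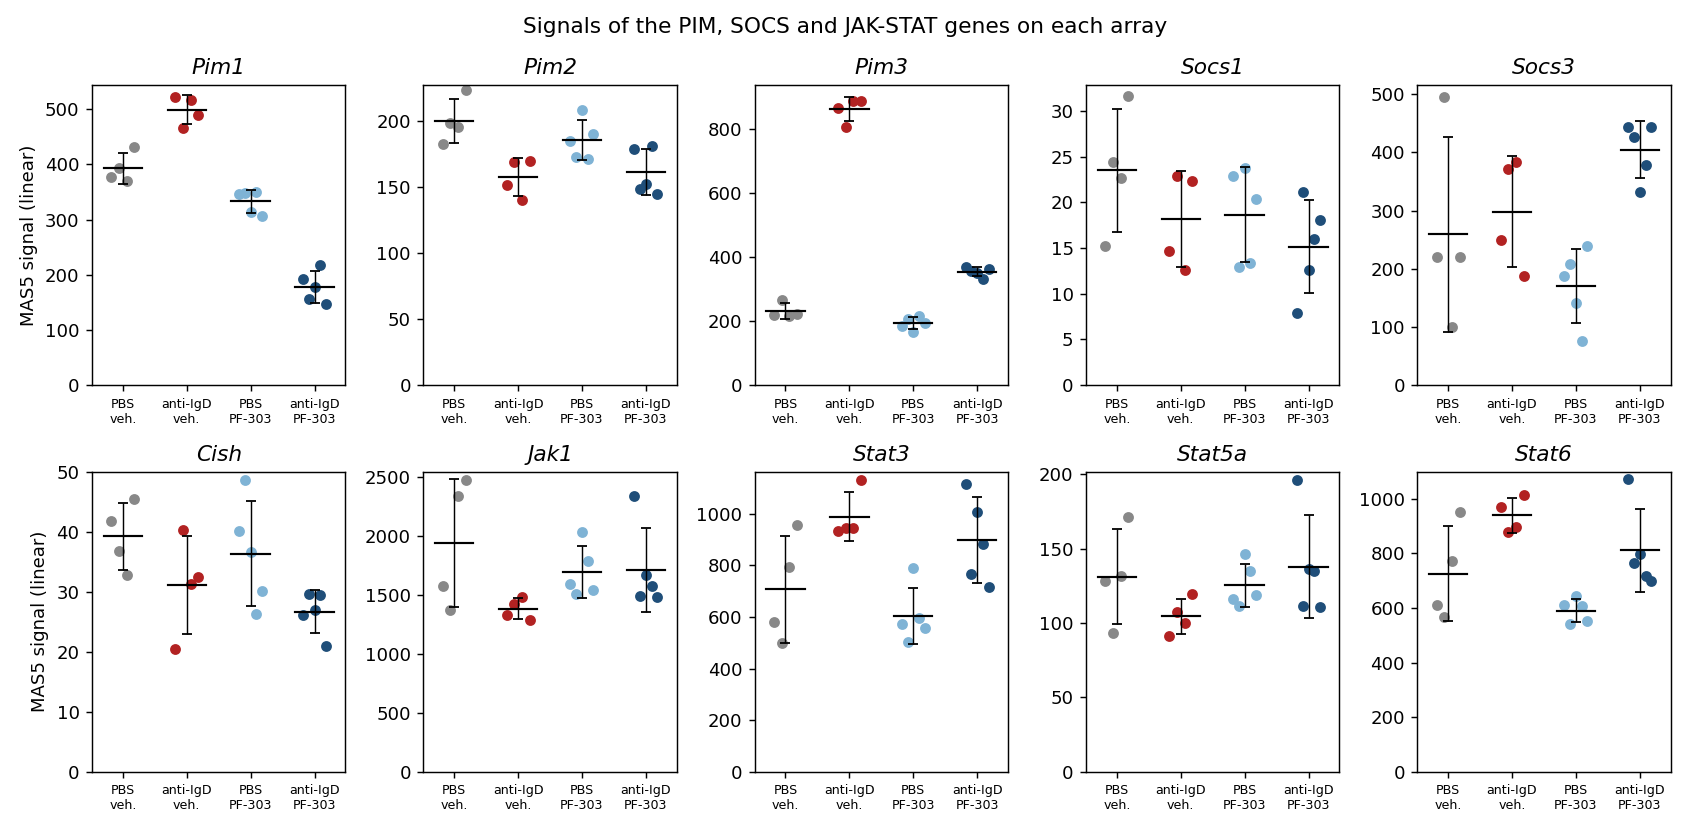
MAS5 signal (linear scale) of the probe set used for each gene on each of the 18 arrays, by group, with the mean (long bar) and SD (error bar); n = 4 for each vehicle (veh.) group and 5 for each PF-303 group. Pim3 lies between 809 and 890.2 in anti-IgD with vehicle and at 370.0 or lower on every other array, and Pim1 is lowest in anti-IgD with PF-303.

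Pim3 encodes a PIM kinase found in many tissues. Its signal was 219.9, 267, 214 and 223 in PBS with vehicle and 867, 809, 890.2 and 889.7 in anti-IgD with vehicle. It was 185, 206, 167, 215 and 196 in PBS with PF-303 and 370.0, 356, 352, 332 and 364 in anti-IgD with PF-303. All 4 stimulated vehicle samples lay far above the others, and the stimulated PF-303 samples lay between them and the unstimulated ones with no overlap on either side. Anti-IgD raised Pim3 3.57-fold in vehicle-treated mice (log2 change 1.84 ± 0.08 SE, adjusted p 1.63e-13) and 1.77-fold in PF-303-treated mice (0.83 ± 0.07, adjusted p 9.39e-09), on the scale of log2(signal + 16). In stimulated cells PF-303 lowered it 2.37-fold (-1.25 ± 0.08, adjusted p 5.38e-10). With PF-303 the response to anti-IgD was smaller, the difference being -1.01 ± 0.11 on the log2 scale (adjusted p 8.48e-06). In unstimulated cells the change with PF-303 was -0.24 ± 0.08 with an adjusted p of 0.207. In pooled cells such as these, fewer expressing cells and less RNA per cell cannot be told apart.

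Pim1 is the first described PIM kinase and a target of STAT3, STAT5 and NF-kB. Its signal was 377, 393, 369 and 432 in PBS with vehicle, 522, 467, 517 and 490.3 in anti-IgD with vehicle, and 347, 348, 313, 350.0 and 307 in PBS with PF-303. In anti-IgD with PF-303 it was 193, 156, 177, 217 and 146, below every other sample. From the lowest to the highest, the order was anti-IgD with PF-303, PBS with PF-303, PBS with vehicle and anti-IgD with vehicle, and no 2 neighbours overlapped. The step between the PBS groups was -0.23 ± 0.09 with an adjusted p of 0.345, so it did not pass the test. Anti-IgD moved Pim1 in opposite directions: up in vehicle-treated mice (log2 change 0.34 ± 0.10, adjusted p 0.00593) and down in PF-303-treated mice (-0.86 ± 0.09, adjusted p 5.61e-08). The difference between these responses was -1.19 ± 0.13 (adjusted p 7.54e-06). Among stimulated cells PF-303 lowered Pim1 2.68-fold (-1.42 ± 0.09, adjusted p 6.25e-10). Pim1 and Pim3 thus both fell with PF-303 in stimulated cells, but the stimulated level under PF-303 was above the unstimulated level for Pim3 and below it for Pim1. The difference between responses was called for 2 of the 10 genes, against 9.78% of all genes tested (6.66% higher and 3.12% lower).

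Pim2 is the PIM kinase most tied to haematopoietic cells and cell survival. Its signal was 183, 199, 195 and 223 in PBS with vehicle and 151, 169, 140.0 and 169.5 in anti-IgD with vehicle. All stimulated vehicle samples lay below the unstimulated ones, and the fall was 0.32 on the log2 scale (-0.32 ± 0.09, adjusted p 0.00771). It was 185, 173, 209, 171 and 190.2 in PBS with PF-303 and 179, 148, 153, 181 and 145 in anti-IgD with PF-303, which overlap. With PF-303 the change with anti-IgD was -0.19 ± 0.08 (adjusted p 0.0909; -0.23 with an adjusted p of 0.0479 without anti-IgD with PF-303 replicate 4), and the difference between the responses was 0.13, with a 95% interval of -0.13 to 0.39. The fall in vehicle-treated mice did not pass the test after shifting the arrays to a common median (-0.21, adjusted p 0.0823), after quantile normalization (-0.24, adjusted p 0.0512), with the position row as a block (-0.26, adjusted p 0.133), or without the 6 arrays with a spike-in ratio above 2 (-0.26, adjusted p 0.0564). Of the PIM genes, the direction of Pim2 was opposite to that of Pim1 and Pim3 in vehicle-treated mice, also with each of these settings.

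**Figure D2:**
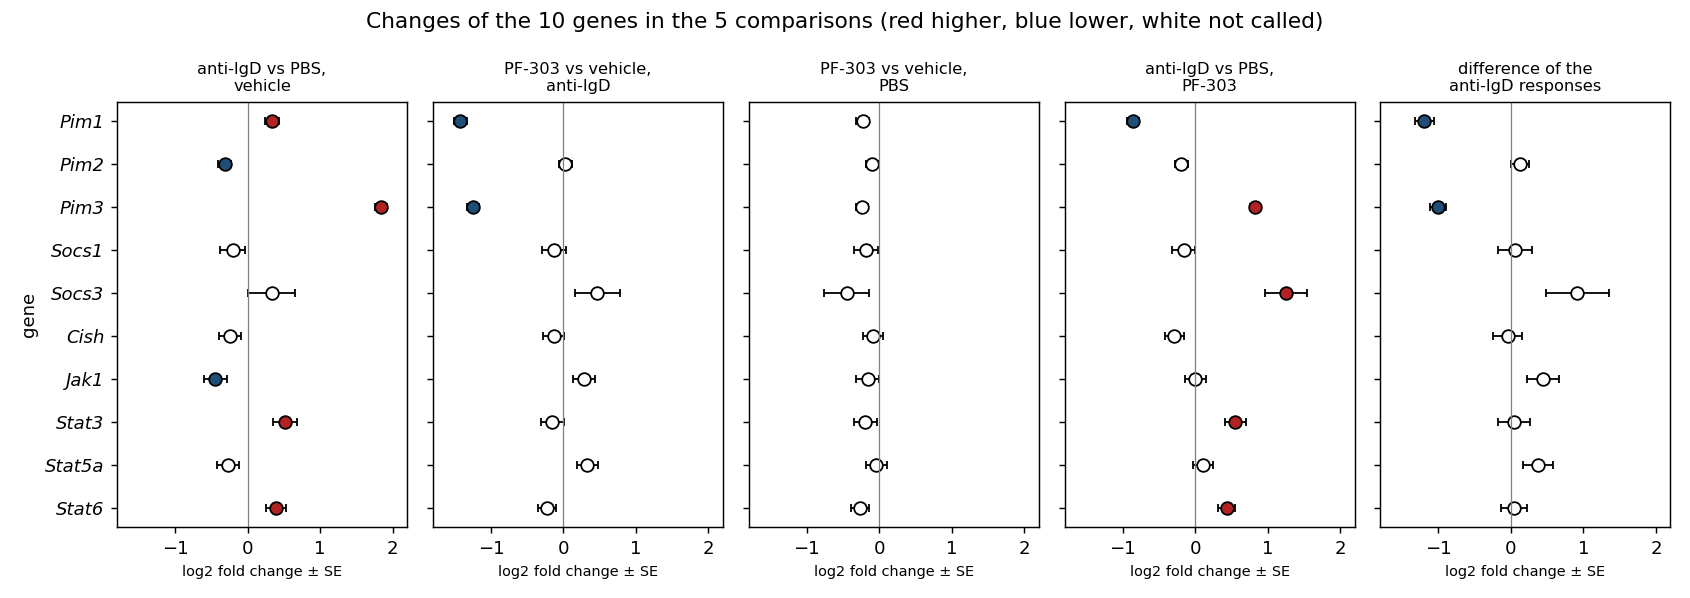
Log2 fold change with its standard error for the 10 genes in each of the 5 comparisons; red points were called higher and blue points lower at an adjusted p under 0.05, white points were not called. Pim1 and Pim3 are the only genes with blue points both for PF-303 in stimulated cells and for the difference between the anti-IgD responses.

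A second probe set was measured for Pim1 and for Pim3. For Pim3, 1451069_at rose with anti-IgD by 1.40 ± 0.15 in vehicle-treated mice and by 0.86 ± 0.14 in PF-303-treated mice, and fell in stimulated cells under PF-303 (-0.94 ± 0.15, adjusted p 5.25e-05 over 20836 probe sets). Its difference between responses was -0.53 ± 0.21 with an adjusted p of 0.125, smaller than that of 1437100_x_at. For Pim1, 1423006_at fell in stimulated cells under PF-303 (-1.05 ± 0.16, adjusted p 4.25e-05) and with anti-IgD in PF-303-treated mice (-0.41 ± 0.15, adjusted p 0.0439). Its response in vehicle-treated mice was 0.31 ± 0.17 (adjusted p 0.154) and its difference between responses -0.72 ± 0.23 (adjusted p 0.0578). The fall of both genes with PF-303 in stimulated cells was therefore called by both probe sets, where 26.3% of all probe sets changed, while the difference between responses was called by 1 of 2 for each gene, against 6.98% of all probe sets. With anti-IgD in vehicle-treated mice both Pim3 probe sets and 1 of 2 for Pim1 were called, against 42.7% of all probe sets. The third Pim3 probe set, 1438956_x_at, had signals of 2.02 to 20.9 and did not pass the filter.

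**Figure D3:**
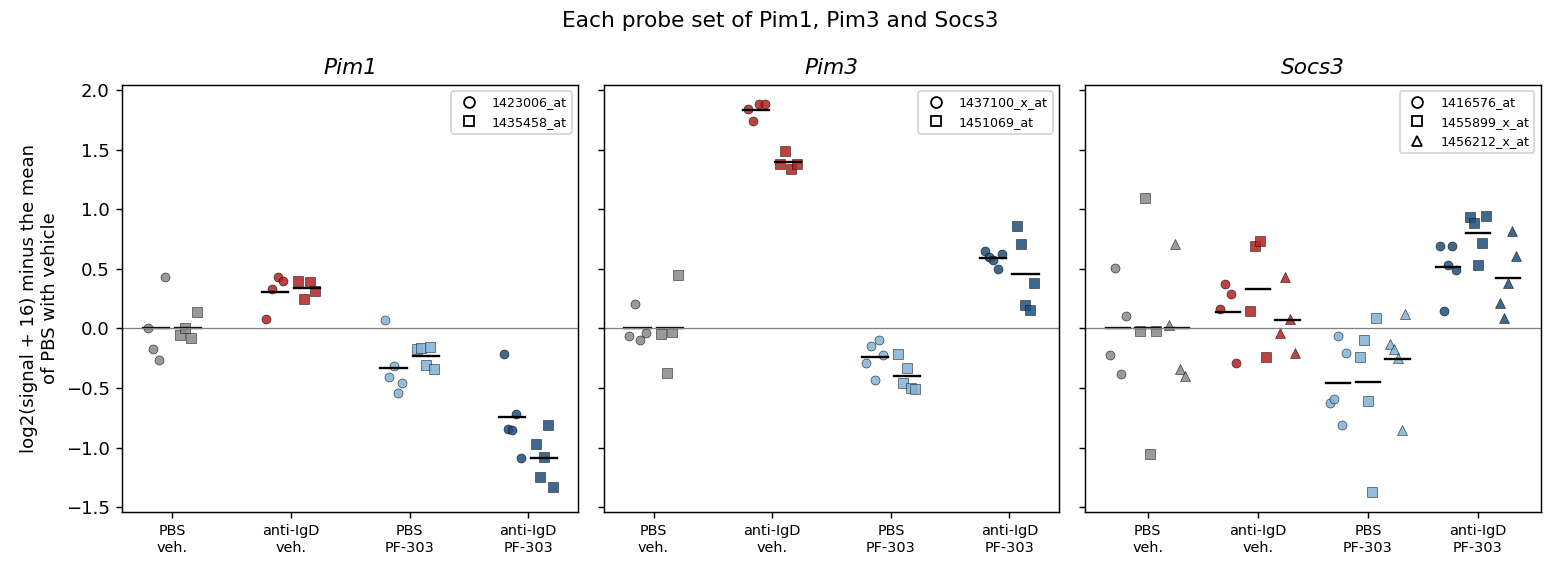
Log2(signal + 16) of each array minus the mean of PBS with vehicle, for each probe set of Pim1, Pim3 and Socs3 that passed the filter (marker shape), by group; bars are group means. Both Pim3 probe sets are highest in anti-IgD with vehicle, both Pim1 probe sets have their lowest mean in anti-IgD with PF-303, and the Socs3 probe sets spread widely in PBS with vehicle.

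Socs3 binds JAK kinases and the shared IL-6 receptor chain and shuts down STAT3 signals. The signal was 220.4, 495, 99.7 and 220.3 in PBS with vehicle and 249.5, 372, 383 and 187 in anti-IgD with vehicle. These groups overlap over most of their range. It was 187, 209, 141, 76.4 and 239 in PBS with PF-303 and 443, 427, 332, 379 and 444 in anti-IgD with PF-303, with every stimulated sample above every unstimulated one. Anti-IgD raised Socs3 2.38-fold in PF-303-treated mice (log2 change 1.25 ± 0.29, adjusted p 0.00185), whereas the change in vehicle-treated mice was 0.33 ± 0.33 (adjusted p 0.427). The difference between these responses, 0.92 ± 0.44, did not pass the test (adjusted p 0.204), so a response particular to PF-303-treated mice was not shown by this probe set. It passed without PBS with vehicle replicate 3, the array with the signal of 99.7 (1.27, adjusted p 0.0463). Without the 6 arrays of high spike-in ratio the change in vehicle-treated mice was -0.20 (adjusted p 0.562) and the difference 1.13 (adjusted p 0.0737). In stimulated cells the change with PF-303 was 0.47 ± 0.31 (adjusted p 0.277). It was called with the position row as a block (1.14, adjusted p 0.046) and with the spike-in signal as a covariate (0.78, adjusted p 0.0368). All 3 Socs3 probe sets rose with anti-IgD in PF-303-treated mice, by 1.25, 0.97 and 0.68, and 28.7% of all probe sets changed there. For 1416576_at the difference between responses was 0.84 ± 0.26, with an adjusted p of 0.0496, and for 1456212_x_at it was 0.61 ± 0.29 (adjusted p 0.228).

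Some markers of other cells also changed with anti-IgD in PF-303-treated mice. The marginal zone and B1 list had a summed signal of 1920 to 2340 in PBS with PF-303 and 3240 to 4180 in anti-IgD with PF-303. These ranges did not overlap, and 3 of 5 genes were called higher and 2 lower. With vehicle, where Socs3 was not called, this list had 2140 to 2700 in PBS and 2620 to 3050 in anti-IgD. The plasma cell list had 3190 to 4270 in PBS with PF-303 and 3570 to 5580 in anti-IgD with PF-303. Of its 4 tested genes 2 were called higher and 1 lower. The neutrophil list (3 of 4 genes analysed) had a summed signal of 62.3 to 258 in PBS with PF-303 and 136 to 837 in anti-IgD with PF-303, with 1 of its 2 tested genes called higher and the defining gene Camp between 0.4 and 11.2. The macrophage and monocyte list summed to 5440 to 8390 and 5880 to 8290 in these groups, with 0 of 5 genes called. The stromal and endothelial list was lower, at 213 to 367 and 131 to 174. Over all genes tested 14.7% were called higher and 19.1% lower with anti-IgD in PF-303-treated mice. The part of these other cells in the Socs3 result was not tested.

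Cish, which binds phosphorylated receptors and limits STAT5 signals, had a low signal throughout: 41.9, 36.9, 32.9 and 45.5 in PBS with vehicle, 20.6, 40.4, 31.3 and 32.6 in anti-IgD with vehicle, 40.2, 48.7, 36.8, 26.4 and 30.2 in PBS with PF-303, and 26.2, 29.7, 27.1, 29.6 and 20.9 in anti-IgD with PF-303. The groups overlap in each comparison. The change with anti-IgD was -0.24 (95% interval -0.55 to 0.07) with vehicle and -0.28 ± 0.13 with PF-303 (adjusted p 0.114). Cish was called in 0 of the 5 comparisons by limma. Socs1, the strongest known JAK inhibitor of the family, had signals of 7.86 to 31.7 over the 18 arrays, close to the filter of 15.2, and was called in no comparison. Its change with anti-IgD in vehicle-treated mice was -0.21 (95% interval -0.57 to 0.16). At such signals the added 16 makes the log2 change smaller than the change of the signal.

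Anti-IgD in PF-303-treated mice changed 5 of the 10 genes, against 33.8% of all genes tested: Pim3, Socs3, Stat3 and Stat6 were higher, where 14.7% of all genes were, and Pim1 was lower, where 19.1% were. Groups did not overlap for Pim1, Pim3, Socs3 and Stat6, against 24.8% of all genes.

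Stat3 carries signals of the IL-6, IL-10 and IL-21 receptors. The signal of its brightest probe set was 579, 499, 793 and 956 in PBS with vehicle and 934, 947, 945 and 1132 in anti-IgD with vehicle. It was 574, 505, 791, 596 and 559 in PBS with PF-303 and 1116, 768, 1008, 882 and 718 in anti-IgD with PF-303. In each pair the stimulated samples were higher with an overlap of 1 or more arrays, and the highest unstimulated arrays were among those of high spike-in ratio. Anti-IgD raised Stat3 with vehicle (log2 change 0.52 ± 0.17, adjusted p 0.014) and with PF-303 (0.56 ± 0.15, adjusted p 0.00585), and the responses differed by 0.04 (95% interval -0.43 to 0.51). Without the 6 arrays of high spike-in ratio the rise with vehicle was larger (0.86, adjusted p 4.58e-06), that with PF-303 was 0.52, and the responses differed by -0.34 (adjusted p 0.167), the other way. With the mean of its probe sets the rise with PF-303 was 0.27 (adjusted p 0.017). The rise with vehicle missed the threshold without PBS with vehicle replicate 1 (0.44, adjusted p 0.0512) or replicate 2 (0.37, adjusted p 0.0705). The probe set 1460700_at separated the groups without overlap in both backgrounds, at 412 to 538 against 668 to 818 with vehicle (0.63 ± 0.10, adjusted p 2.29e-05) and at 392 to 479 against 548 to 701 with PF-303 (0.54 ± 0.09, adjusted p 6.79e-05). Of the dimmer probe sets, 1459961_a_at rose with anti-IgD in vehicle-treated mice (0.40 ± 0.16, adjusted p 0.0461) and was lower in stimulated cells under PF-303 (-0.66 ± 0.15, adjusted p 0.00223), and 1424272_at was called in no comparison.

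Stat6 carries the IL-4 and IL-13 signals that drive class switching to IgE and CD23 itself. Its signal was 609, 568, 772 and 951 in PBS with vehicle, 969, 878, 895 and 1014 in anti-IgD with vehicle, 611, 541, 642, 605 and 550.3 in PBS with PF-303, and 1072, 765, 799, 717 and 698 in anti-IgD with PF-303. With PF-303 the groups did not overlap, and with vehicle 1 unstimulated array, of high spike-in ratio, lay within the stimulated range. Anti-IgD raised Stat6 with vehicle (log2 change 0.39 ± 0.13, adjusted p 0.0192) and with PF-303 (0.43 ± 0.12, adjusted p 0.00726), and the responses differed by 0.04 (95% interval -0.33 to 0.41). Without the 6 arrays of high spike-in ratio the rise with vehicle was larger (0.66, adjusted p 7.63e-06), that with PF-303 was 0.35, and the responses differed by -0.31 (adjusted p 0.119), the other way. With vehicle the call was lost with the position row as a block (0.52, adjusted p 0.0533) and without PBS with vehicle replicate 1 (0.32) or 2 (0.29) or anti-IgD with vehicle replicate 5 (0.36). Among stimulated cells the change with PF-303 was -0.22 ± 0.13 (adjusted p 0.199), and it passed the test without anti-IgD with PF-303 replicate 1 (-0.33, adjusted p 0.0387), the array with the signal of 1072. In stimulated cells without the 6 arrays PF-303 lowered Stat6 (-0.36, adjusted p 0.0012) and Stat3 (-0.32, adjusted p 0.0117). With all arrays the change of Stat3 there was -0.15 ± 0.16 (adjusted p 0.524), and with the mean of its probe sets -0.36 (adjusted p 0.0044). The second Stat6 probe set, 1421708_a_at, changed by 0.33 ± 0.14 with vehicle (adjusted p 0.0578) and rose by 0.41 ± 0.12 with PF-303 (adjusted p 0.0136).

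Jak1 is the kinase shared by the interferon receptors, the common gamma chain and the IL-6 family. Its signal was 1572, 1373, 2334 and 2467 in PBS with vehicle and 1329.6, 1424, 1483 and 1285 in anti-IgD with vehicle. It was 1587, 1508, 2031, 1787 and 1538 in PBS with PF-303 and 2332, 1486, 1669, 1575 and 1479.9 in anti-IgD with PF-303. The 6 highest values are those of the 6 arrays with a high spike-in ratio, and the groups overlap in each comparison. Jak1 fell with anti-IgD in vehicle-treated mice (log2 change -0.44 ± 0.16, adjusted p 0.0287). Without the 6 arrays the change was -0.09 ± 0.08 (adjusted p 0.387). Leaving out any 1 of PBS with vehicle replicate 3 (-0.34) or 4 (-0.31) or anti-IgD with vehicle replicate 1 (-0.42) or 5 (-0.41) also ended the call. The other Jak1 probe sets did not behave alike: 1433803_at fell in vehicle-treated mice (-0.34 ± 0.12, adjusted p 0.031), and 1433804_at fell in PF-303-treated mice (-0.59 ± 0.16, adjusted p 0.00676), where 1433805_at changed by 0.00 ± 0.15.

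Stat5a carries IL-2, IL-7 and growth-hormone family signals. Its signal was 128, 93.6, 132 and 172 in PBS with vehicle and 91.2, 108, 100.4 and 119 in anti-IgD with vehicle. It was 116, 111, 146, 135 and 119 in PBS with PF-303 and 197, 112, 136, 135 and 111 in anti-IgD with PF-303. All groups overlap, and no comparison called it. The log2 change with anti-IgD was -0.27 ± 0.15 with vehicle (adjusted p 0.162), and it passed the test without PBS with vehicle replicate 2 (-0.40, adjusted p 0.0338). In stimulated cells the change with PF-303 was 0.33 ± 0.15 (adjusted p 0.0924). These changes were -0.07 and 0.17 without the 6 arrays of high spike-in ratio. The second probe set, 1450259_a_at, was called in no comparison, with changes of -0.13 to 0.17.

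**Figure D4:**
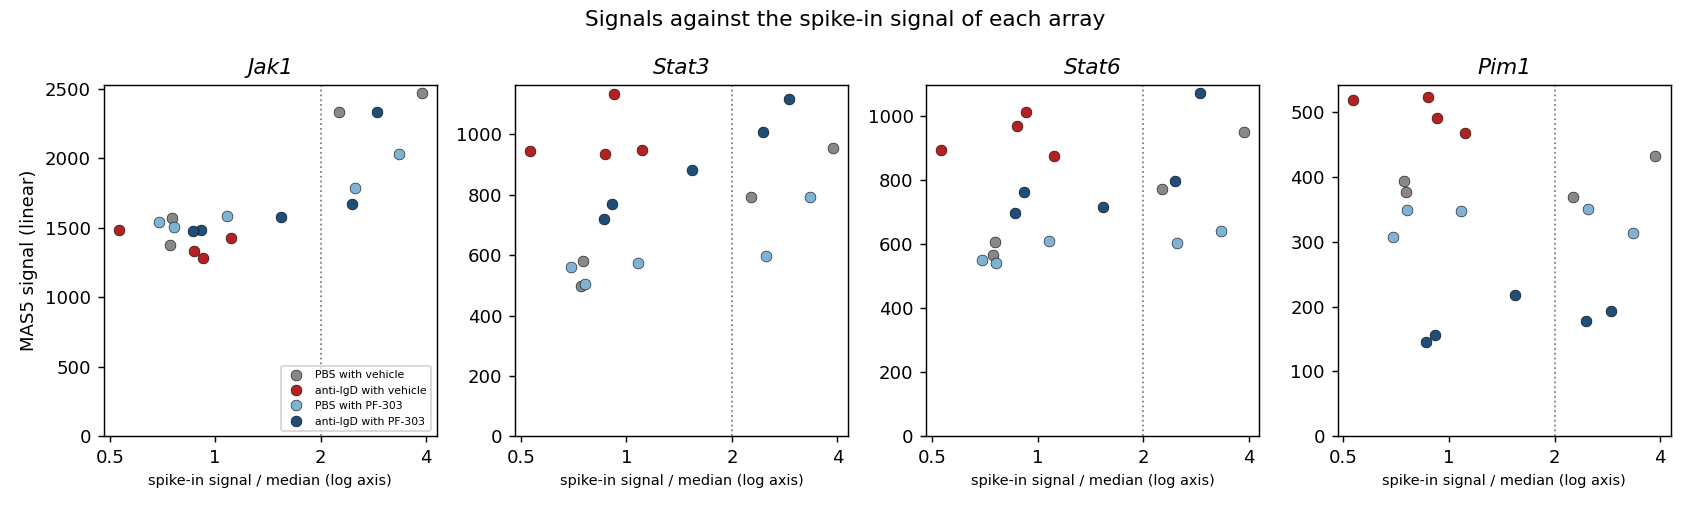
MAS5 signal (linear) of Jak1, Stat3, Stat6 and Pim1 against the spike-in signal of each array relative to the median of all arrays (log axis), coloured by group; the dotted line marks 2 times the median, above which 6 arrays lie. For Jak1 the 6 highest signals lie to the right of the line, while Pim1 is lowest in anti-IgD with PF-303 on both sides of it.

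Without the 6 arrays to the right of that line, PF-303 changed Pim1 by -1.46 and Pim3 by -1.26 in stimulated cells, next to -1.42 and -1.25 with all arrays. In stimulated cells the log2 change of Pim1 with PF-303 lay between -1.50 and -1.23 over all 30 alternative settings and that of Pim3 between -1.29 and -1.09, each with an adjusted p under 0.05. Relative to their own means over the 18 arrays, the genes whose log2 signals lay closest to those of Pim3 were Rel, an NF-kB subunit (root mean square difference 0.163), Txnrd3, a thioredoxin reductase (0.165), and Uck2, a uridine-cytidine kinase (0.166). Rel rose by 1.93 ± 0.09 with anti-IgD and fell by 1.34 with PF-303 in stimulated cells, next to 1.84 and 1.25 for Pim3. For Pim1 the closest genes were Gadd45b (0.288), Mcoln2 (0.308) and Icam1 (0.312), named here after their values were seen. With anti-IgD in PF-303-treated mice these 3 changed by -0.60, -0.34 and -0.28, next to -0.86 for Pim1. In vehicle-treated mice they changed by 0.35, -0.06 and 0.61, next to 0.34 for Pim1, so Mcoln2 did not share its rise. The root mean square of Pim1 around its own mean was 0.545 and that of Pim3 0.783, so the likeness was looser for Pim1. Such likeness is a description of a pattern over 4 groups. The genes were picked for it on these same arrays, so their near values are no separate evidence.

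The other kinases and transcription factors of the pathway were mostly lower after anti-IgD. In vehicle-treated mice 4 of 6 tested genes fell and 1 rose, with a median log2 change of -0.65 against -0.13 over all genes, of which 30.6% fell and 17.4% rose. Stat2, a transcription factor of interferon signalling, fell from a mean signal of 103 ± 23.4 (SD, n = 4) to 33.2 ± 11.6 (log2 change -1.29 ± 0.16, adjusted p 7.38e-07). Jak2, the kinase of the receptors for growth hormone, erythropoietin and interferon gamma, fell by 0.79 (-0.79 ± 0.08, adjusted p 6.78e-08). Tyk2, the partner of JAK1 at interferon and IL-10 receptors, fell by 0.72 (-0.72 ± 0.11, adjusted p 1.73e-05; -0.37 with the mean of its probe sets). Stat5b also fell (-0.58 ± 0.11, adjusted p 0.000156), and Stat4 was called higher (0.27 ± 0.10, adjusted p 0.0294), a call that ended without any 1 of 4 arrays (0.20 to 0.25 without PBS with vehicle replicate 1 or 2 or anti-IgD with vehicle replicate 4 or 5) and was 0.41 without the 6 arrays of high spike-in ratio. In stimulated cells PF-303 raised Stat5b (0.53 ± 0.10, adjusted p 0.000524) and Jak2 (0.36 ± 0.08, adjusted p 0.00128) and lowered Stat4 (-0.44 ± 0.09, adjusted p 0.00109). Stat2 was also called higher (0.48 ± 0.15, adjusted p 0.0197), but not without anti-IgD with vehicle replicate 4 or 5 or anti-IgD with PF-303 replicate 2 (0.35 to 0.45), with the spike-in signal as a covariate (0.38) or with the position row as a block (0.57, adjusted p 0.0987). Stat5b and Stat5a, near-identical proteins, were thus unlike in their calls, and no test compared the 2 genes. With PF-303, anti-IgD still lowered Stat2 (-0.81 ± 0.14), Jak2 (-0.45 ± 0.07) and Tyk2 (-0.38 ± 0.10), and raised 0 of 6. Over all genes tested 19.1% fell and 14.7% rose there.

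Among other SOCS genes 1 of 5 was called with anti-IgD in vehicle-treated mice, against 47.9% of all genes. Socs6 rose (log2 change 0.35 ± 0.11, adjusted p 0.0114), but was not called with the mean of its probe sets (0.23, adjusted p 0.0781) or with the position row as a block (0.27, adjusted p 0.222). It was lower with PF-303 in stimulated cells at the edge of the threshold (-0.27 ± 0.10, adjusted p 0.0498), and leaving out any 1 of 14 arrays ended that call (-0.30 to -0.21), as did leaving out the 6 arrays of high spike-in ratio (-0.16, adjusted p 0.219), the spike-in signal as a covariate (-0.20), the mean of its probe sets (-0.25), no filter (adjusted p 0.0882), the replicate number as a block (-0.26) and the position row as a block (-0.22). Socs2, Socs4, Socs5 and Socs7 were called in neither comparison. Of 4 tested ubiquitin ligase partners of SOCS proteins, Rnf7 (0.45 ± 0.15) and Eloc (0.28 ± 0.08) rose with anti-IgD in vehicle-treated mice, where 17.4% of all genes did. Each of these calls was lost under other settings. Rnf7 was 0.14 (adjusted p 0.324) without the 6 arrays of high spike-in ratio, and it was not called with the spike-in signal as a covariate (0.30), with the position row as a block (0.44, adjusted p 0.0501), or without PBS with vehicle replicate 3 (0.28) or anti-IgD with vehicle replicate 5 (0.41). Eloc was 0.10 (adjusted p 0.312) with the mean of its probe sets. Among 11 other brakes, 4 fell and 1 rose with anti-IgD in vehicle-treated mice, a share close to that over all genes (30.6% lower and 17.4% higher), and 2 fell and 1 rose once the arrays were shifted to a common median. Pias3, a SUMO ligase that inhibits STAT3, fell (-0.78 ± 0.12, adjusted p 7.19e-06), as did Pias1 (-0.56 ± 0.10; -0.30 with the mean of its probe sets) and the phosphatase Ptpn1 (-0.31 ± 0.09), the last not after the shift (-0.20, adjusted p 0.0845) or with the position row as a block (-0.24, adjusted p 0.178), while the phosphatase Ptpn2, which acts on JAK1 and STATs, rose (0.34 ± 0.09, adjusted p 0.00255). With PF-303 in stimulated cells Pias4 (0.54 ± 0.13), Pias2 (0.43 ± 0.09) and Pias1 (0.31 ± 0.09) were among 4 that rose, and Ptpn2 was the 1 that fell (-0.33 ± 0.08, adjusted p 0.00475), against 19.8% higher and 10.4% lower over all genes. With the position row as a block the list had 1 higher and 1 lower, and Pias4 (0.29, adjusted p 0.298) and Pias1 (0.37, adjusted p 0.0799) were not called. With the mean of the probe sets Pias4 was 0.33, Pias2 0.19 and Pias1 0.08, the last not called (adjusted p 0.349). Ptpn6 (SHP-1) rose with anti-IgD in PF-303-treated mice (0.45 ± 0.11, adjusted p 0.00283).

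Of 18 tested receptor chains that signal through JAKs, 8 fell and 4 rose with anti-IgD in vehicle-treated mice, where 30.6% of all genes fell and 17.4% rose, with a median log2 change of -0.36 against -0.13 over all genes. With the position row as a block 6 fell and 0 rose. Il10ra, the ligand-binding chain of the IL-10 receptor, fell most, from 316 ± 17.4 (SD, n = 4) to 79.3 ± 11.2 (-1.81 ± 0.10, adjusted p 1.57e-12; -1.09 with the mean of its probe sets). Il27ra fell from 205 ± 15.2 to 101 ± 17.2 (-0.93 ± 0.11, adjusted p 3.95e-07). Il9r fell by 0.82 (-0.82 ± 0.19), at group mean signals of 3.07 to 17.6. Il6st, the signalling chain of the IL-6 family, rose from 61.6 ± 10.9 to 110 ± 28.6 (0.68 ± 0.17, adjusted p 0.00209), and Il21r rose by 0.32 ± 0.10 (0.21 without PBS with vehicle replicate 3); neither was called with the position row as a block (0.44 and 0.28). Il2ra was called higher at signals near the filter (0.58 ± 0.23, adjusted p 0.0408), a call that ended without any 1 of 6 arrays (0.47 to 0.61), with an offset of 1 (1.27, adjusted p 0.116), with no filter (adjusted p 0.0575) and with the position row as a block (0.82, adjusted p 0.0582). In stimulated cells PF-303 raised 7 of the 18 and lowered 2, against 19.8% and 10.4% of all genes, and raised 4 and lowered 0 with the position row as a block. Il10ra rose to 140 ± 14 (SD, n = 5; 0.71 ± 0.09, adjusted p 3.55e-06; 0.40 with the mean of its probe sets). Il6ra rose by 0.62 ± 0.14 (adjusted p 0.00136) but was not called with the mean of its probe sets (0.30, adjusted p 0.0922). The calls of Csf2rb (0.50 ± 0.17), Il6st (-0.51 ± 0.16) and Il21r (-0.25 ± 0.09) in that comparison were lost without any 1 of 3, 3 and 5 arrays (0.39 to 0.50, -0.43 to -0.42 and -0.26 to -0.22), with the spike-in signal as a covariate (0.40, -0.40 and -0.22) and with the position row as a block (0.34, -0.23 and -0.23). Il21r was also not called without the 6 arrays of high spike-in ratio (-0.18, adjusted p 0.0745), with the replicate number as a block (-0.22), with no filter (adjusted p 0.0586) or with no variance trend (adjusted p 0.053). For Il10ra the response to anti-IgD differed with PF-303 by 0.66 ± 0.13 (adjusted p 0.00226), a call lost with the mean of its probe sets (0.33 ± 0.21, adjusted p 0.333). Of 17 ligands listed, 4 (Il6, Il10, Il15 and Osm) passed the filter. By limma 0 of them were called with anti-IgD in vehicle-treated mice or in stimulated cells under PF-303, against 47.9% and 30.2% of all genes. At an unadjusted p under 0.05 there were 0 and 2, against 5934 and 4425 of 11104 genes.

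**Figure D5:**
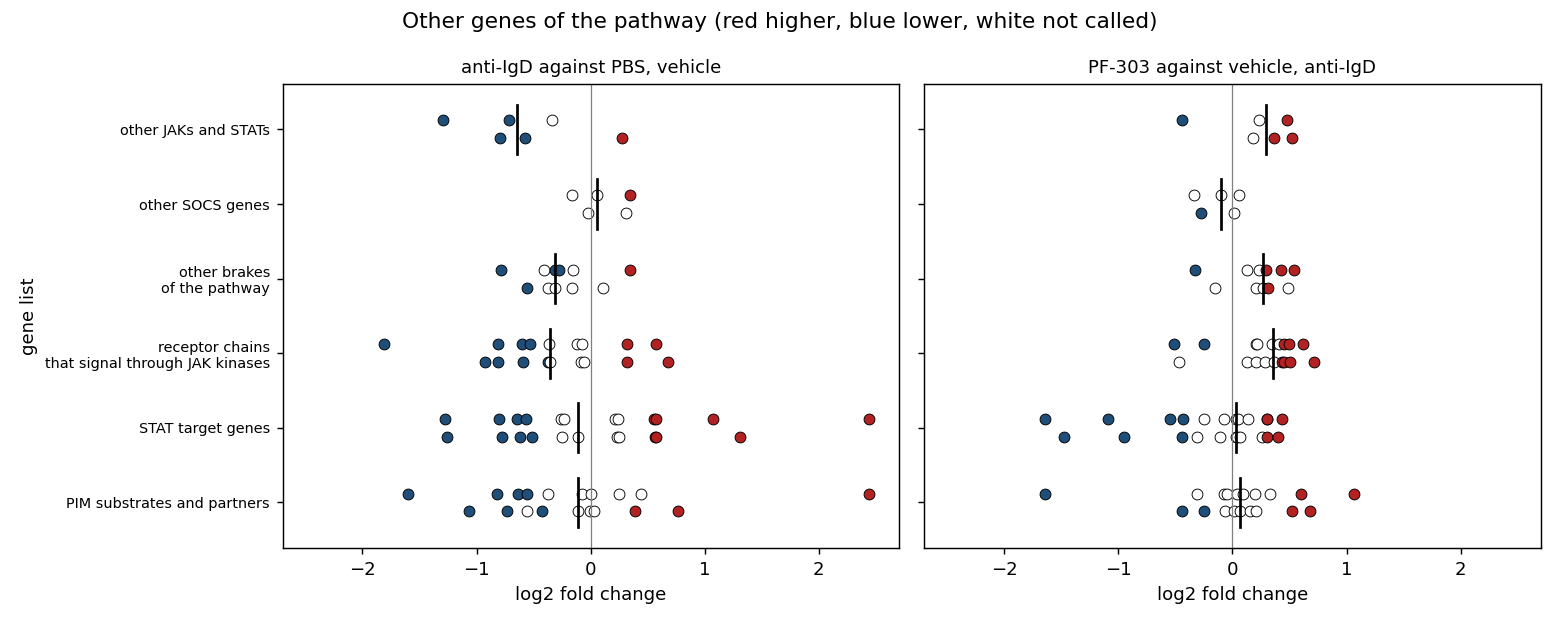
Log2 fold change of each tested gene of 6 lists of the pathway, for the anti-IgD response under vehicle and for PF-303 in anti-IgD-treated mice; red points were called higher, blue lower, white not called, and the bar is the list median. The largest rise in the left panel and the largest fall in the right panel are Myc, which is on 2 lists.

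Of 23 tested STAT target genes, 7 rose and 8 fell with anti-IgD in vehicle-treated mice, against 17.4% and 30.6% of all genes, with a median of -0.11 against -0.13 over all genes. Those that rose most were Myc (2.44 ± 0.13, adjusted p 2.61e-12), the AP-1 subunit Junb (1.31 ± 0.17, adjusted p 1.31e-06) and Prdm1, which encodes the plasma-cell factor Blimp-1 (1.07 ± 0.13, adjusted p 3.11e-07). Those that fell most were the NF-kB cofactor Bcl3 (-1.28 ± 0.14, adjusted p 8.07e-08) and the interferon-induced genes Gbp2 (-1.26 ± 0.15, adjusted p 5.47e-07) and Mx1 (-0.81 ± 0.15, adjusted p 0.000127). In stimulated cells PF-303 lowered 7 and raised 4, against 10.4% and 19.8% of all genes. Leaving out anti-IgD with vehicle replicate 2 took these 11 calls to 7, and the position row as a block left 6, all lower. Myc fell from 2883 ± 138 to 924 ± 205 (-1.65 ± 0.13, adjusted p 5.18e-09), Fos fell by 1.47 (-1.47 ± 0.38, adjusted p 0.00487) and Junb by 1.09 (-1.09 ± 0.16, adjusted p 2.09e-05). The rises of Gbp2 (0.44 ± 0.15), Mx1 (0.40 ± 0.14) and Fcer2a (0.31 ± 0.10) each lost the call without any 1 of 5, 6 and 1 arrays, at 0.35 to 0.43, 0.30 to 0.41 and 0.25, and with the position row as a block, at 0.26, 0.20 and 0.23. Gbp2 and Mx1 were also not called after quantile normalization (0.39 and 0.36), Mx1 and Fcer2a not after shifting the arrays to a common median (0.35 and 0.26), Mx1 not without the 6 arrays of high spike-in ratio (0.42, adjusted p 0.0771), with an offset of 64 (0.23) or with no filter (adjusted p 0.0754), and Fcer2a not with the mean of its probe sets (0.21). Prdm1 and Bcl3 also passed the test in PF-303-treated mice, changing with anti-IgD by 0.96 ± 0.11 and -1.24 ± 0.12 there. Fos (-2.19 ± 0.38, adjusted p 0.00429) and Myc (-0.96 ± 0.13, adjusted p 0.000137) were the 2 of 23 that PF-303 lowered in unstimulated cells, against 0.675% of all genes. Fos was not called there without the 6 arrays of high spike-in ratio (-2.08, adjusted p 0.0548).

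Of 19 tested genes of proteins that PIM kinases phosphorylate or work with, 7 fell and 3 rose with anti-IgD in vehicle-treated mice, close to the shares of 30.6% and 17.4% over all genes, and their median of -0.11 was close to the -0.13 of all genes. The arrays measured their RNA and not their phosphorylation. Cdkn1b, which encodes the cell-cycle inhibitor p27, fell from 989 ± 92 to 317 ± 42 (SD, n = 4; -1.60 ± 0.09, adjusted p 6.75e-12). The quiescence factors Foxo3 (-1.07 ± 0.19, adjusted p 8.18e-05; -0.69 with the mean of its probe sets) and Foxo1 (-0.83 ± 0.11, adjusted p 2.85e-06) fell too. Myc, Nfatc1 (0.77 ± 0.11, adjusted p 5.86e-06) and the phosphatase gene Cdc25a (0.39 ± 0.09, adjusted p 0.00131) rose. In stimulated cells PF-303 raised 4 of these genes and lowered 3, against 19.8% and 10.4% of all genes: Cdkn1b rose (1.06 ± 0.09, adjusted p 1.53e-08), as did Foxo1 (0.60 ± 0.11, adjusted p 0.000177), and Nfatc1 fell (-0.45 ± 0.11, adjusted p 0.00252). The calls of Cxcr4 (0.68 ± 0.22) and Cdc25a (-0.25 ± 0.09) were lost without any 1 of 3 and 7 arrays (0.47 to 0.66 and -0.26 to -0.21), with the spike-in signal as a covariate (0.50 and -0.24) and with the position row as a block (0.83 and -0.26). Cdc25a was also not called with the mean of its probe sets (-0.15) or with no filter (adjusted p 0.0522). For Cdkn1b the response to anti-IgD differed with PF-303 by 0.99 ± 0.12 (adjusted p 4.23e-05; 0.64 with the mean of its probe sets). For Myc it differed by -0.69 ± 0.18 (adjusted p 0.0168), by -1.06 without the 6 arrays of high spike-in ratio, and by -0.74 with the position row as a block, where it was not called (adjusted p 0.126).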

How the data were processed

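The authors deposited linear intensity values of Affymetrix Mouse Genome 430 2.0 arrays, 1 MAS5 signal for each probe set, per the submitters' processing notes; version and settings are not given in the sources used here. Per the labels' protocols, 150 ng of total RNA per sample was labelled with a 3′ kit, so probe sets read the end of a transcript. Scaling of each array to a common mean hides differences in total RNA. Signals were taken as log2(signal + 16), which makes changes of dim genes smaller. Of 45101 probe sets, 64 controls were left out, and the others had to exceed 15.2, the median signal, on at least 4 arrays. The probe set of highest mean stood for a gene, and a fit of 20836 probe sets was run beside it. Linear models (limma 3.58.1, R 4.3.3, lmFit and eBayes with a trend) had 1 mean per group over all 18 arrays, 5 contrasts, two-sided tests and Benjamini-Hochberg adjustment; calls were made at an adjusted p under 0.05. The model was tested on simulated data. No arrays held identical values.

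Named were the 10 genes, and from each list up to 3 called genes of largest change in each direction of a comparison. Not every such gene was named, and some of the named calls rest on single arrays. The genes closest in pattern to Pim3 and Pim1 and some cell type markers were named too. The genes and lists were chosen with earlier results of these data known. Replicate numbers recur between groups and were not taken to pair samples. Alternatives changed the offset, filter, probe-set rule, scaling, variance trend, blocks, spike-in handling and single arrays. Symbols follow RefSeq (GRCm38.p6). Precision is limited by the number of arrays.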

Additional observations from a re-analysis of the deposited data

Results flagged for a closer look

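Of 40 gene and group combinations checked, 4 held an array far from the others of its group, and chance gives about 1 in 20. Pim3 was 267.2 in PBS with vehicle replicate 2, against 214 to 223 in the other 3 arrays. Jak1 was 2332 in anti-IgD with PF-303 replicate 1, against 1479.9 to 1669 in the other 4. Stat6 was 1072 in the same array, against 698 to 799. That array had a spike-in ratio of 2.9, and the part of this in both values was not tested. Stat3 was 1132 in anti-IgD with vehicle replicate 5, against 934 to 947, at a spike-in ratio of 0.923.

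Pim1 and Pim3 had responses to anti-IgD that differed between PF-303-treated and vehicle-treated mice, by -1.19 ± 0.13 and -1.01 ± 0.11 on the log2 scale (limma, adjusted p 7.54e-06 and 8.48e-06). All 5 samples of Pim1 in anti-IgD with PF-303 lay below all samples of PBS with PF-303, and all 4 in anti-IgD with vehicle lay above all of PBS with vehicle. The second probe set of Pim1, 1423006_at, gave a difference of -0.72 ± 0.23 (limma, adjusted p 0.0578). That of Pim3, 1451069_at, gave -0.53 ± 0.21 (adjusted p 0.125). Neither passed the test.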

How the results depend on the processing

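Of 1490 values of the 10 genes under 30 alternative settings, 1457 kept their side of the threshold, 19 lost a call, 13 gained one and 1 reversed. Of the 50 results behind these values, 15 were called in the main fit, and the others had no call to lose. All 19 losses were with anti-IgD in vehicle-treated mice: Jak1 in 9 settings, Pim2 in 4, Stat6 in 4 and Stat3 in 2. Direction was compared only where a call was made. Values without a call could change sign and still count as kept, as for Socs3 with anti-IgD in vehicle-treated mice (-0.49 to 0.70). The reversed value was that of Jak1. With the mean of its probe sets, Jak1 fell with anti-IgD in PF-303-treated mice (-0.27, adjusted p 0.0279), where its brightest probe set gave 0.00. Of the 50 results, 39 never changed in these terms, among them all those of Pim1 and Pim3. The 6 calls with anti-IgD in vehicle-treated mice became 3 with the row of the position code, a label with no stated meaning, as a block. The 2 calls with PF-303 in stimulated cells became 5 with the spike-in signal as a covariate and 4 without the 6 arrays of high spike-in ratio. With the covariate Socs3 was called there (0.78) and in the difference between responses (1.27). Leaving out 1 array at a time gave 4 to 6 calls with anti-IgD in vehicle-treated mice.

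The deviations of same-numbered samples had correlations of -0.16 to 0.22 (median -0.0026, 7 of 24 pairs over 0.1). Those of different-numbered samples were -0.29 to 0.45 (median -0.017, 18 of 97 pairs over 0.1). These ranges overlap and do not show whether the numbers pair samples. The main fit did not take them to do so. With the replicate block 5 of 6 calls held in vehicle-treated mice, Jak1 being lost (-0.35, adjusted p 0.0632). Shifting the arrays to a common median took the split of all genes from 1928 higher and 3394 lower to 2433 and 2510 with anti-IgD in vehicle-treated mice, from 740 and 346 to 471 and 490 for the difference between responses, and from 8 and 75 to 15 and 57 with PF-303 in PBS-treated mice. Signals near the background limit Socs1 and Cish. For other named genes 2761 of 2996 values kept their call, 235 lost it and 0 reversed.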
